A study of Mus musculus with 4 samples.

Results

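Open chromatin was described at 10 genes that make, bind, read or break down retinoic acid, the vitamin A derivative that patterns the embryo and drives embryonic stem cells out of self-renewal. They were the receptor genes Rara, Rarb, Rarg, Rxra and Rxrb, the breakdown enzyme genes Cyp26a1 and Cyp26b1, the binding protein genes Crabp1 and Crabp2, and the synthesis enzyme gene Aldh1a2. All 10 were found by symbol among 21887 protein-coding genes of a RefSeq gene table for assembly GRCm38.p6. A peak belonged to a gene when it overlapped the gene body or the 20 kb on either side. After peaks of all libraries were merged where they overlapped, these windows held 157 of 208211 regions.

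Retinoic acid is made from retinaldehyde by aldehyde dehydrogenases and is oxidised and cleared by the Cyp26 enzymes. In the nucleus it binds a retinoic acid receptor paired with a retinoid X receptor, and the pair sits on direct repeats of a 6-letter half-site whether or not the ligand is there. Rarb, Cyp26a1 and several Hox genes are textbook targets of this pair, and adding retinoic acid to stem cell cultures is a common way to switch them on.

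The study profiled mouse embryonic stem cells of the genotypes wt and Hox-/- by ATAC-seq, in which a transposase cuts and tags accessible DNA, with 2 libraries per genotype. Hox-/- cells, by the series title, have lost the function of every Hox gene; the labels do not say how the alleles were made, or whether the line is a clone. Cells of both genotypes were grown in the same way, in a medium with serum, leukaemia inhibitory factor, the GSK-3 inhibitor CHIR99021 and the MEK inhibitor PD0325901, and no retinoic acid treatment is named. Nothing in the labels says that replicates were separate cultures, so the p-values measure only the spread between these libraries.

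The list of wt replicate 1 had 213705 peaks, that of wt replicate 2 had 216795, that of Hox-/- replicate 1 had 191704 and that of Hox-/- replicate 2 had 200214. The lists carry no read counts, so the sequencing depth is unknown. Hox-/- replicate 1, with the shortest list, also had the lowest median −log10 p, which was 15.7 there and 19.8 in wt replicate 2. A peak lay at a start or end of 8 of 8 embryonic stem cell marker genes in each library, but also at 9 of 10 marker genes of differentiated cells and fibroblasts (not at Col3a1), so these lists do not tell the cell types apart by the presence of a peak.

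The starts of Rarb and Cyp26a1 carried the repeat that the receptor pair is known to bind. The search covered direct repeats of half-sites in the same orientation, where a half-site was the consensus AGGTCA, the variant AGTTCA, the variant GGTTCA or the variant GGGTCA, on both strands, spaced by 1, 2 or 5 bases (DR1, DR2 and DR5), in the 300 bases around each annotated start. Of 15 starts of the 9 member genes with an entry in the RefSeq promoter table, 2 held a DR5, and none held a DR1 or a DR2. Among all 21255 promoters of protein-coding genes, 17 (0.0800%) held a DR5, 19 (0.0894%) a DR2 and 39 (0.183%) a DR1. A match describes letters and does not show that a protein sits there. Below are the 250 bases before the start of both genes, 5′ to 3′ on the strand of the gene, from the RefSeq promoter table of GRCm38.p6, with the half-sites of the repeat in capitals and any half-site outside it in lower case. They are shown because an open region covered both repeats in every library. The repeat of Cyp26a1 lies on the opposite strand and so reads as its reverse complement.
Rarb, chr14:16575477-16575726, minus strand: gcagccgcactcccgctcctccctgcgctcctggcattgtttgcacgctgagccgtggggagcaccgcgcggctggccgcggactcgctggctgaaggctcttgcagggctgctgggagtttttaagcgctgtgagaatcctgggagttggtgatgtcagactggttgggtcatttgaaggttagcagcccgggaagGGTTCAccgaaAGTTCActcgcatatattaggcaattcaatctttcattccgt
Cyp26a1, chr19:37697558-37697807, plus strand: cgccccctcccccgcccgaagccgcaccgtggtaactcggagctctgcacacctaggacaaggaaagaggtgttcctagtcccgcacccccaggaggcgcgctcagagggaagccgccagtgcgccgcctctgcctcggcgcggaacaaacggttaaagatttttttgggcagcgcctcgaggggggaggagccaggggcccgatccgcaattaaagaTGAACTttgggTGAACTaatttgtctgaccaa

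The Rarb repeat lay from -53 to -37, counted in bases from the start, (chr14:16575513-16575529). The nearest peak summit was 41 and 32 bp from its middle in wt and 34 and 32 bp in Hox-/-. At Cyp26a1 the repeat lay from -32 to -16 (chr19:37697776-37697792). Here the nearest summit was 117 and 136 bp from the middle of the repeat in wt and 126 and 121 bp in Hox-/-. Both repeats were thus under a listed peak in all 4 libraries, close to a summit at Rarb and between summits at Cyp26a1.

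**Figure D1:**
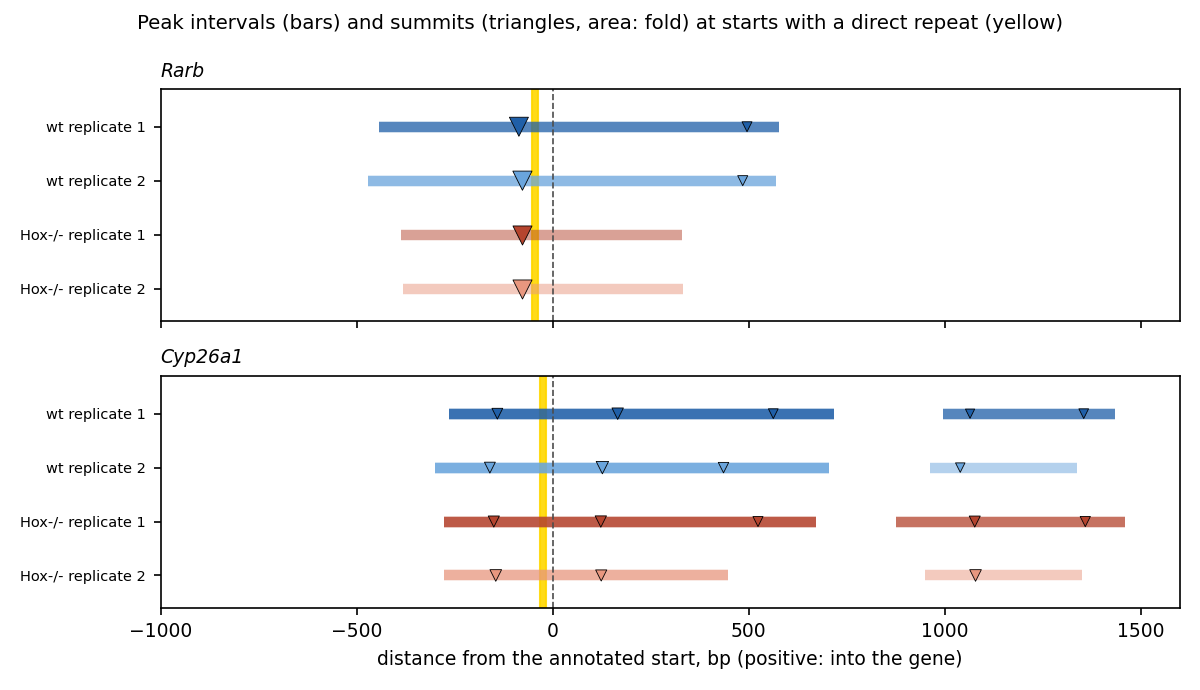
Peaks around the annotated starts of Rarb and Cyp26a1 in the 4 libraries, plotted by distance from the start in bp. Bars are peak intervals, triangles are summits with an area that follows the fold over background, and the yellow band is the DR5; at Rarb the strongest summit lies at -86 to -77 bp in every library, and at Cyp26a1 summits flank the repeat.

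Over the 10 windows, the number of peaks was 182 in each wt library and 164 and 158 in Hox-/- replicates 1 and 2. These were 0.0852% and 0.0840% of the wt lists and 0.0855% and 0.0789% of the Hox-/- lists, so the genotypes overlapped once the length of the list was counted. Wt had a mean share of 0.0846% ± 0.000858 (SD, n = 2), and the mean of Hox-/- was 0.0822% ± 0.00469 (SD, n = 2). The difference of -0.00233 percentage points had p = 1 in an exact two-sided permutation test, which with 2 against 2 cannot go below 0.33. Within the windows, 27 and 28 peaks in wt and 31 and 24 in Hox-/- lay within 1 kb of an annotated start (for Crabp2, of either end), 78 and 73 in wt and 66 and 63 in Hox-/- elsewhere in the gene bodies, and 71 and 75 in wt and 61 and 64 in Hox-/- beyond the genes. The remaining 6 to 7 per library lay at an end that is no annotated start.

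**Figure D2:**
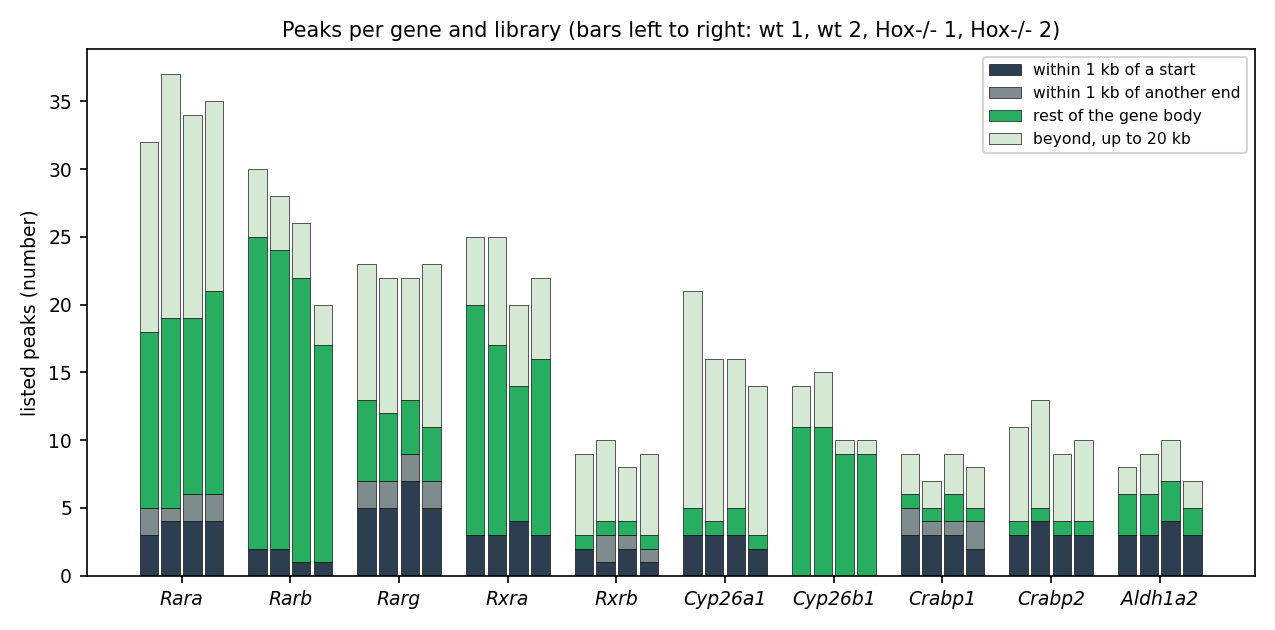
Number of listed peaks per gene and library, split by place (for Crabp2, whose strand is not in the table, both gene ends count as starts). Rara has the most peaks, 32 to 37 per library, and Cyp26b1 has none at its start in any library.

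A peak lay at the start (for Crabp2, at either end) of 9 of the 10 genes in each library, with Cyp26b1 as the exception. Among the 50000 strongest peaks of each list, 7 genes had one in both wt libraries and 6 in both Hox-/- libraries, and with summits within 250 bp there were 8 in each genotype. The share over all genes was not computed at these stricter settings, so these counts have no background. Among 17492 protein-coding genes with an annotated start, 66.9% had a start peak in all 4 libraries. No member had a start peak that both libraries of a genotype shared and both of the other lacked. Over all genes, 0.383% had one in wt alone and 0.149% in Hox-/- alone.

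Distances from a start are those of the summit, negative when it lies upstream. Peak strength was compared through ranks, because the fold and p-value of a peak are the authors' own and serve only within a list. The 122787 regions called in all 4 libraries were ranked by −log10 p within each library, with rank 1 the strongest. The members had 99 such regions, 63.1% of their 157, against 59.0% of all regions. Each was tested with limma on normal scores of the ranks, fitted over all 122787 regions with Benjamini-Hochberg adjustment. No member region passed an adjusted p of 0.05 in either direction, where 0.151% of all regions were called higher and 0.129% lower in Hox-/-. The lowest adjusted p of a member region was 0.234. At an unadjusted p under 0.05, limma gave 7 of the 99 member regions, and 10.7% of all regions.

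The shift of a region is the difference between the genotype means of log2 rank, counted as positive when the region ranks nearer the top in Hox-/-. Its median over the 99 regions was 0.03, against 0.01 over all regions, and 53 of the 99 were above 0 (62480 of 122787 over all regions). The median size of the genotype shift was 0.18, against 0.16 between the wt replicates and 0.21 between the Hox-/- replicates (all regions 0.17, 0.19 and 0.21). The first is a difference between means of 2 libraries and the others are between single libraries, so their sizes are not on the same footing. In 28 regions the genotypes did not overlap and the genotype shift was larger than both replicate shifts, 18 of them higher and 10 lower in Hox-/-. Over all regions this held for 28.0%, with 14.0% in each direction. The members' share of 28.3% is therefore near the background.

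**Figure D3:**
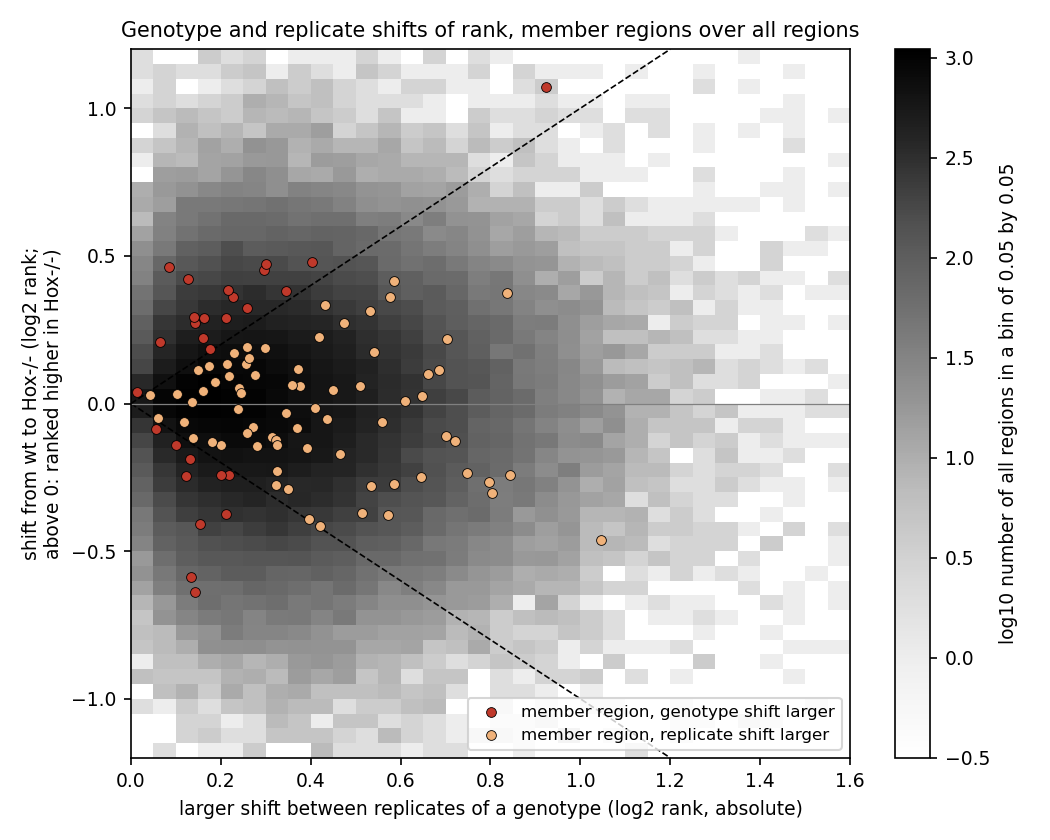
Genotype shift (vertical) against the larger of the 2 replicate shifts (horizontal), both in log2 rank, for the 99 member regions (points) over a count of all regions (grey, log10 scale; values off the axes are not drawn). Outside the dashed lines the genotype shift is the larger, as in 28 member regions; the region highest in the plot is the one in the Crabp2 window, at 1.07.

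Of the 157 regions, 10 had a peak in each wt library and in no Hox-/- library, and 1 the other way round. These were 6.37% (exact Clopper-Pearson 95% interval 3.10 to 11.4, counting error only) and 0.637% (0.0161 to 3.498). Over all regions the percentages were 3.83% and 1.23%, both inside these intervals. The 10 regions lay in the windows of 8 genes, at Rara, Rarb, Rarg, Rxra, Rxrb, Cyp26b1, Crabp2 and Aldh1a2, and none was within 1 kb of a member's start. All were weak, with folds of 1.54 to 4.02 over background. The 1 region called in Hox-/- alone (chr15:102230841-102231112), beyond the end of Rarg and 967 bp into Itgb7, had folds of 2.03 and 1.78. Absence from a list depends on depth, whose part in these counts was not tested.

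Among the receptors of retinoic acid itself, Rara (chr11:98927800-98974942, plus strand) encodes the alpha receptor, the broadly expressed form. It had the most open regions, 32 in all and 20 in every library. At the starts at positions 98937696 and 98937718, which share 1 region, the region chr11:98937416-98937877 ranked 19150 and 18789 in wt and 18466 and 23113 in Hox-/-. The folds were 5.95 and 6.19 in wt and 6.02 and 5.44 in Hox-/-, and the summits lay at -116 to -113 bp from the former start. The genotypes overlapped, with a score difference of -0.06 (95% interval -0.28 to 0.17) and a limma adjusted p of 0.901. The start at 98939711 had no peak within 1 kb in wt replicate 1 and a weak one, with folds of 1.79 to 2.09, in the other 3 libraries. Near the start at 98964872 a region ranked 50835 and 56773 in wt and 50778 and 53556 in Hox-/-, with its summit at -942 to -914 bp. The region shared by the starts at 98937696 and 98937718 thus ranked ahead of the region near the start at 98964872 in every library.

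Of the 20 Rara regions in every library, 6 shifted by more than the replicates did, 4 of them higher in Hox-/-, beside the 28.0% of all regions that did so. Inside the gene body, chr11:98954768-98955340 ranked 33733 and 33898 in wt and 22300 and 27391 in Hox-/-, a shift of 0.45 with a limma adjusted p of 0.494. Just inside the start, chr11:98938140-98938457 ranked 95160 and 103969 in wt and 75738 and 72633 in Hox-/- (shift 0.42, adjusted p = 0.473 by limma). Both stood higher in each Hox-/- library than in either wt library, and neither passed the test. The strongest region of the window, chr11:98907518-98908219, lay at -401 bp from the start of the neighbouring Cdc6, a DNA replication gene, and ranked 2802 and 2505 in wt and 1691 and 2520 in Hox-/-. Its wt and Hox-/- ranks overlapped.

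Rarb (chr14:16430839-17082331, minus strand) encodes the beta receptor, a known target of the pathway. Its only annotated start lies inside the gene body, and no library had a peak within 1 kb of the 5′ end of the gene. The strongest summit at the start was 506769 to 506778 bp from that end. The start region with the repeat printed above, chr14:16574898-16575947, was the best-ranked start region of the 10 genes. It ranked 16834 and 17561 in wt and 17735 and 17836 in Hox-/-, with folds of 12.6 and 12.8 in wt and 12.6 and 12.6 in Hox-/-. The 4 values lay within a narrow band, and the score difference was -0.02 (95% interval -0.24 to 0.19, limma adjusted p = 0.967). The best region elsewhere, chr14:16434404-16435326 near the 3′ end of the gene body, ranked 15186 and 20487 in wt and 13419 and 14600 in Hox-/-.

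The Rarb gene body spans 651493 bp, and its window held 27 regions, 16 of them in every library. The window held 30 and 28 peaks in wt, and 26 and 20 in Hox-/- replicates 1 and 2, whose whole lists are also shorter. Of the 27 regions, 2 were in wt alone and 0 in Hox-/- alone, beside 3.83% and 1.23% of all regions. Of the 16, 2 had a shift that exceeded both replicate shifts (28.0% of all regions), both lower in Hox-/-. The larger, chr14:16686715-16687180, ranked 88651 and 76527 in wt and 113239 and 100664 in Hox-/- (shift -0.37, limma adjusted p = 0.481). It was a weak region in every library.

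Rarg (chr15:102234938-102257522, minus strand) encodes the gamma receptor, and its 3′ neighbour is the integrin gene Itgb7. Of the receptor genes it lies nearest a Hox cluster, 663.6 kb from Hoxc13. Its starts at positions 102246500 and 102257522 differed in openness. The region at the start inside the gene, chr15:102246342-102247500, ranked 23573 and 26080 in wt and 18840 and 21832 in Hox-/-. The region just before the outer start, chr15:102257538-102258479, ranked 80545 and 93005 in wt and 73480 and 88999 in Hox-/-. The inner start was thus the more open in each of the 4 libraries. The bases before both are given for comparison, inner start and then outer start, since the stronger region lay at the start with the lower GC content (51.7% against 70.0% over 300 bases); neither held a repeat that was searched for.
Rarg inner start, chr15:102246501-102246750, minus strand: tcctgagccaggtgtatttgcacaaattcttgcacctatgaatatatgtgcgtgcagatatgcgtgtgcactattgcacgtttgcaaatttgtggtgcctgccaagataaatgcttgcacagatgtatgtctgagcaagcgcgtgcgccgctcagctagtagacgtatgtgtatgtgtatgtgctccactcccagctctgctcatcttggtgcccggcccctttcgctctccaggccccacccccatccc
Rarg outer start, chr15:102257523-102257772, minus strand: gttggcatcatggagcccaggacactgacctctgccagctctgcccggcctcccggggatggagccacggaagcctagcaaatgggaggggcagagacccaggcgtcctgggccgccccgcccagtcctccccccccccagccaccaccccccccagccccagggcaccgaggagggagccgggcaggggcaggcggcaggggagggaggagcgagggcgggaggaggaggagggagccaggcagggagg

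At the inner start the genotype shift of 0.29 was larger than those between replicates (0.15 and 0.21 in size), and both Hox-/- libraries ranked higher than both wt libraries, but limma gave an adjusted p of 0.707. In all, 4 of the 13 Rarg regions in every library shifted by more than the replicates, each higher in Hox-/-, beside 28.0% of all regions (14.0% in each direction). The largest of these shifts was at the start of Itgb7 (chr15:102231745-102232143, summit at -7 bp), which ranked 63156 and 54894 in wt and 48561 and 36747 in Hox-/- (shift 0.48, adjusted p = 0.469 by limma). The best region of the window lay in the gene body (chr15:102240379-102241026) at ranks 19078 and 12059 in wt and 13039 and 15390 in Hox-/-, with the wt values on either side of the Hox-/- values.

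The retinoid X receptors are the partners of the retinoic acid receptors and of several other nuclear receptors. Rxra (chr2:27676445-27763319, plus strand) had a poorly ranked start. The region chr2:27676016-27677270 ranked 94830 and 94617 in wt and 66478 and 92386 in Hox-/-, and by rank only Hox-/- replicate 1 stood apart. These ranks rest on different summits, at -254 and -238 bp in wt and -965 and -972 bp in Hox-/-. At the wt summits the folds were 4.38 and 4.57, and at the nearest Hox-/- summits 2.33 and 2.98. At the outer summit they were 4.11 and 4.43 in wt and 5.78 and 4.05 in Hox-/-. This difference between summits was not tested. The score difference was 0.35 with a wide 95% interval of -0.29 to 0.99 (limma adjusted p = 0.742). No library had a peak within 1 kb of the second annotated start at 27709292. GC content of the 300 bases around the open start was 83.0%, the highest of the 15 starts.

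Rxra was open mainly away from its start. Its best region lay beyond the gene, chr2:27764349-27765430, at ranks 32223 and 25385 in wt and 30826 and 27746 in Hox-/-. In the gene body, chr2:27747453-27747801 ranked 84942 and 80042 in wt and 59756 and 59838 in Hox-/-, a shift of 0.46 against replicate shifts of 0.09 and 0.00 in size, and the limma adjusted p was 0.465. Another body region, chr2:27693721-27694463, ranked 110738 and 88529 in wt and 121618 and 118018 in Hox-/-, with an adjusted p of 0.407 by limma. Of the 13 Rxra regions in every library, 2 shifted by more than the replicates, beside 28.0% of all regions.

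Rxrb (chr17:34031812-34038403, plus strand) lies in a gene-dense stretch with Ring1, H2-Ke6, Slc39a7 and Col11a2 in its window. Its start region, chr17:34031400-34032150, is shared with the start of Slc39a7, a zinc transporter gene, and the data cannot assign it to either gene. The ranks were 37355 and 22663 in wt and 26885 and 37596 in Hox-/-, so the replicates of each genotype spread wider than the genotypes (limma adjusted p = 0.915). The strongest region of the window, chr17:34027487-34028314, lay at -48 bp from the start of H2-Ke6, with ranks of 4891 and 7337 in wt and 4743 and 4263 in Hox-/-. None of the 4 Rxrb regions in every library shifted by more than both pairs of replicates, beside 28.0% of all regions.

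**Figure D4:**
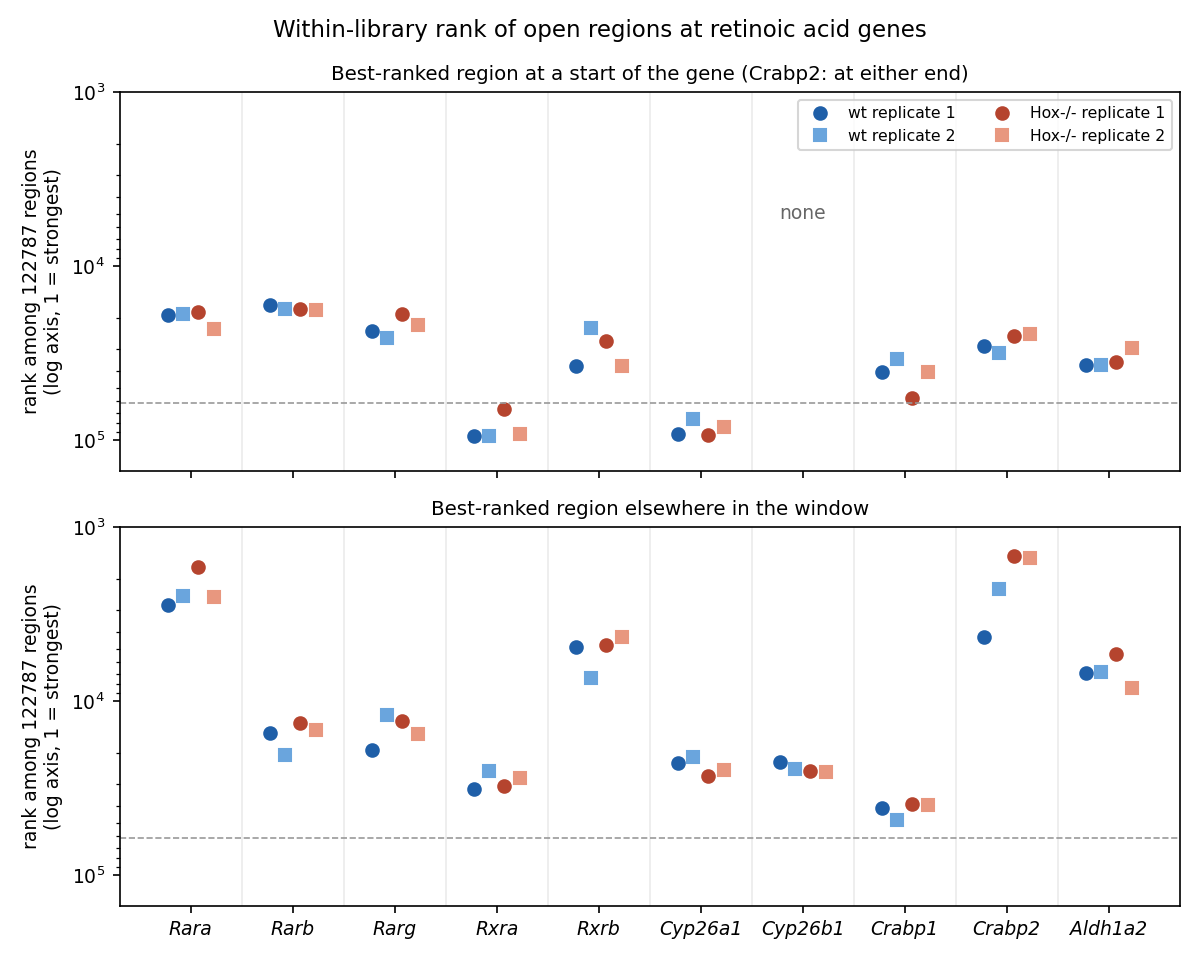
Rank of the best region at a start (top, for Crabp2 at either end) and elsewhere in the window (bottom) of each gene. Ranks in the 4 libraries are drawn on a log axis with the strongest rank at the top, and the dashed line marks the middle rank. The start regions of Rxra and Cyp26a1 lie at the bottom, Cyp26b1 has none, and the Crabp2 window holds a region at rank 4311 and 2271 in wt and 1469 and 1511 in Hox-/-.

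The Cyp26 enzymes break retinoic acid down and so bound where it acts. Cyp26a1 (chr19:37697738-37701536, plus strand) is among the genes that retinoic acid switches on most readily in stem cells. All 10 regions of its window were called in every library. The gene itself is 3799 bp long, and most peaks of the window lay beyond it. These were 16 of 21 and 12 of 16 in wt and 11 of 16 and 11 of 14 in Hox-/-. The window shares 8 regions with that of the neighbouring Cyp26c1. The start region with its repeat, chr19:37697509-37698526, was weak, at ranks 92026 and 76182 in wt and 93279 and 83904 in Hox-/- and folds of 3.695, 4.57, 3.59 and 3.86 in the same order. The genotypes overlapped (score difference -0.10, 95% interval -0.72 to 0.52, limma adjusted p = 0.941). Against Rarb, whose start holds the same kind of repeat, the Cyp26a1 start ranked far lower in each of the 4 libraries.

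The regions next to that start are given as values, since neither passed the test. The upstream region at -1887 bp, chr19:37695763-37696111, ranked 58431 and 53236 in wt and 87569 and 80096 in Hox-/-, with folds of 5.12 and 5.59 against 3.60 and 3.81. The downstream region at 1078 bp, chr19:37698684-37699268, ranked 119588 and 122087 in wt and 101774 and 86998 in Hox-/-, with folds of 2.28 and 2.10 against 3.33 and 3.86. The upstream region ranked lower and the downstream region higher in both Hox-/- libraries, with no overlap between genotypes in either. Their shifts were -0.59 and 0.36 and their limma adjusted p-values 0.327 and 0.234, so neither was called. The downstream region has the lowest adjusted p of the 99. In all, 6 of the 10 Cyp26a1 regions shifted by more than the replicates, 3 in each direction, where 28.0% of all regions did. With so few regions, which share neighbours and libraries, this count was not tested. The best-ranked region of the window, chr19:37686352-37687845, lay 1466 bp into the neighbouring Cyp26c1, which encodes another enzyme of the family, at ranks 22704 and 20848 in wt and 26820 and 24791 in Hox-/- (shift -0.25, adjusted p = 0.761 by limma).

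With the window widened to 50 kb on either side, 1 region of 164 was called, lower in Hox-/-, where 0.129% of all regions were called lower and 0.151% higher. It was near Cyp26a1. It lay 33.6 kb from the gene, inside the body of Exoc6, an exocyst subunit gene (chr19:37663645-37664169). It ranked 42436 and 51021 in wt and 105132 and 96048 in Hox-/-, with folds of 10.1 and 9.24 in wt and 3.99 and 4.39 in Hox-/-. The region was open in all 4 libraries and lower in both Hox-/- libraries, with a shift of -1.11 and a limma adjusted p of 0.0275. The call rests on the way the test was set up. Ranking by fold gave an adjusted p of 0.232, limma without a trend 0.449, log2 ranks 0.109, and leaving out each library in turn 0.167 to 0.391 (1 genotype is then a lone library, assumed to vary like the pair of the other), while a stricter q gave 0.0280, a 50% overlap 0.0209 and a replicate block 0.00216. The direction was the same in each of these fits, and with a library left out the score difference was -1.34 to -1.01, against -1.24 with all 4. Which gene the region serves was not tested.

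Cyp26b1 (chr6:84571414-84593908, minus strand) encodes a second enzyme of the family. None of the 4 libraries had a peak within 1 kb of its start at 84593810. Its best region, chr6:84589971-84590667, lay 3357 bp inside the gene at ranks 22329 and 24559 in wt and 25328 and 25464 in Hox-/-. In the gene body, chr6:84583253-84584511 ranked 30432 and 33603 in wt and 49371 and 50152 in Hox-/-, with folds of 8.65 and 8.06 against 5.87 and 5.83. Replicates lay close together and both Hox-/- libraries ranked below both wt libraries. The shift of -0.64, the lowest of the 99, stood against replicate shifts of 0.14 and 0.02 in size, and limma gave an adjusted p of 0.271. A weaker region 14696 bp from the start, chr6:84578939-84579308, ranked 78786 and 87792 in wt and 54022 and 66530 in Hox-/- (shift 0.47, adjusted p = 0.468 by limma). Of the 8 Cyp26b1 regions in every library, these 2 shifted by more than the replicates, beside 28.0% of all regions. The number of peaks in the window was 14 and 15 in wt and 10 in each Hox-/- library, whose whole lists are also shorter. Of its 10 regions, 8 were in every library and 1 was in wt alone, where 3.83% of all regions were in wt alone. In the Rarg window the counts overlapped, at 23 and 22 in wt and 22 and 23 in Hox-/-.

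**Figure D5:**
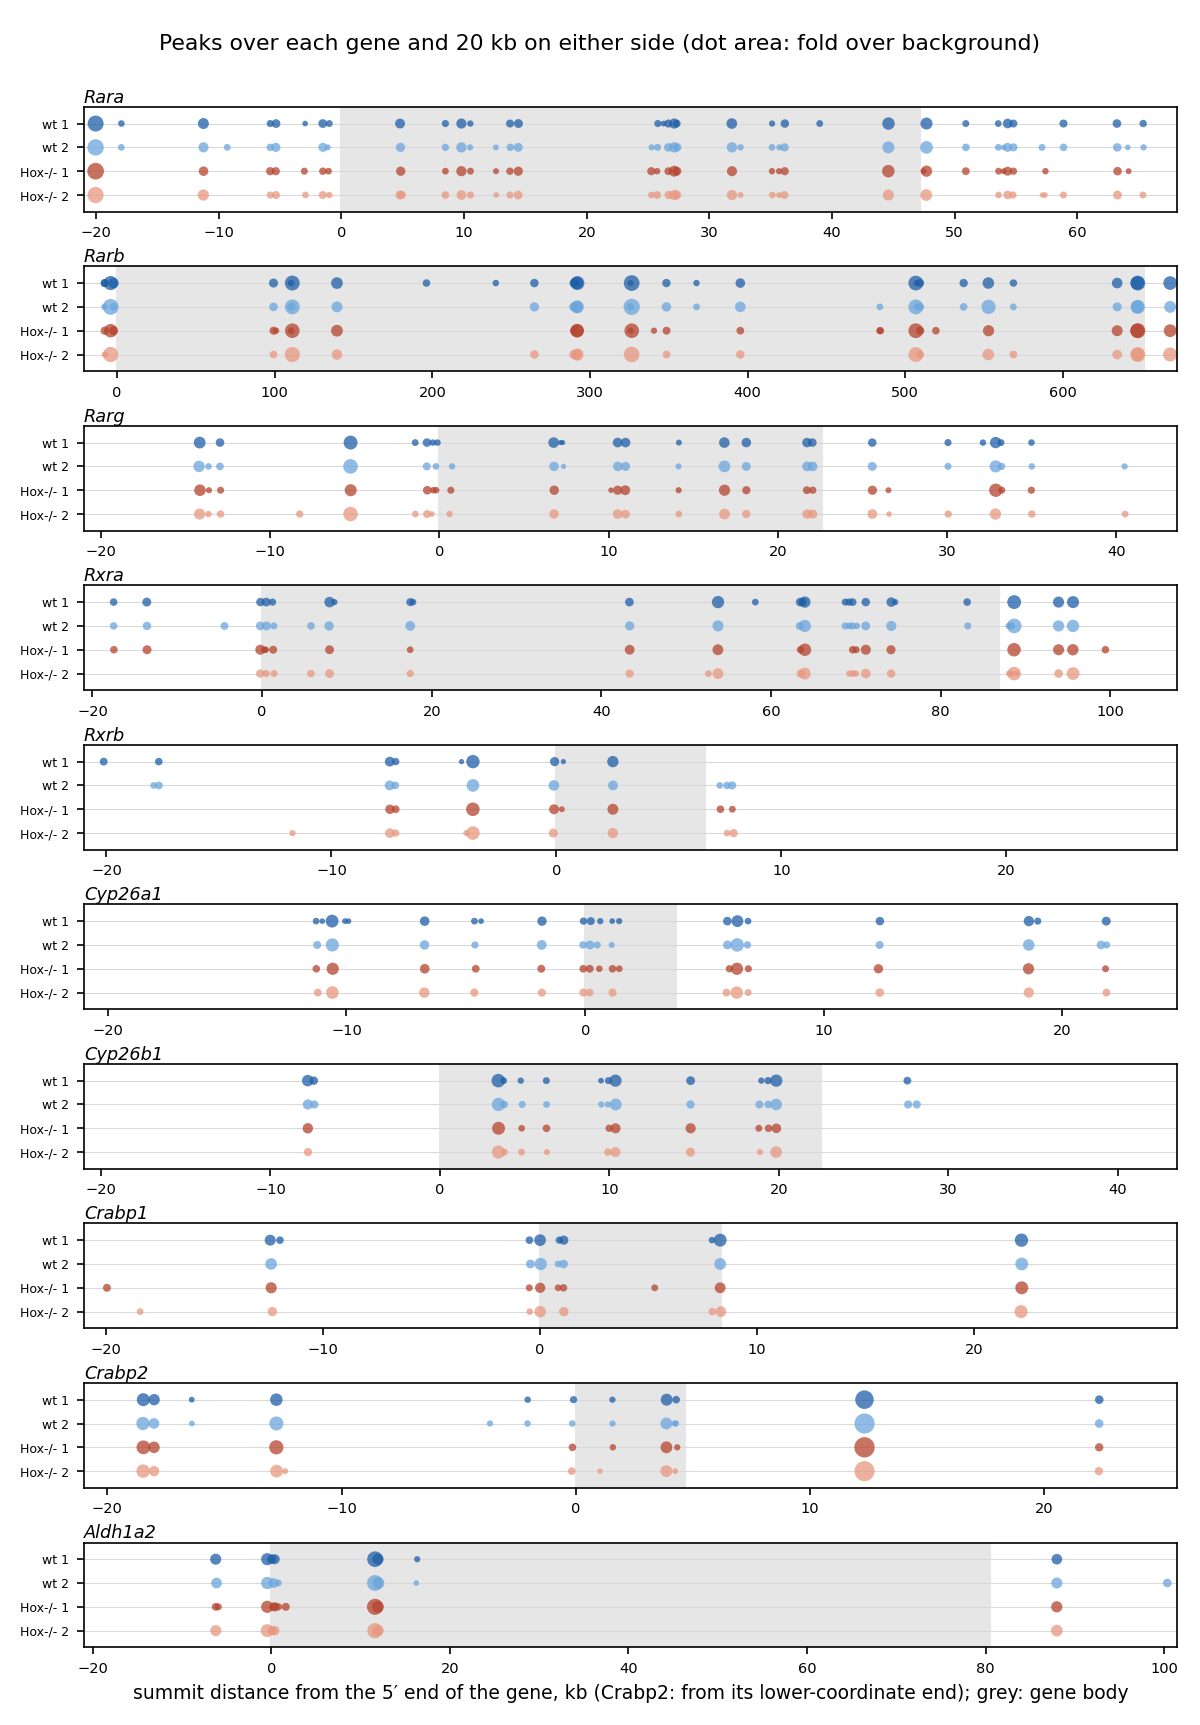
Summits of all listed peaks over each gene (grey) and 20 kb on either side, 1 line per library, by distance in kb from the 5′ end of the gene (the lower-coordinate end for Crabp2); dot area follows the fold over background. Of the 157 regions 99 are in all 4 libraries and 23 in 1 library, and the largest dots of the plot lie beyond Crabp2, where the folds are 19.8 to 23.8.

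The cellular retinoic acid binding proteins carry the ligand in the cytoplasm, and Crabp2 is known to hand it to the receptors. Crabp1 (chr9:54764748-54773110, plus strand) was open at its start, chr9:54764140-54765261, with ranks of 40830 and 34318 in wt and 57775 and 40453 in Hox-/-. Hox-/- replicate 1 was the low library, and Hox-/- replicate 2 fell between the wt values (score difference -0.25, 95% interval -0.57 to 0.07, limma adjusted p = 0.596). The best region elsewhere, chr9:54786562-54787468, ranked 40941 and 47969 in wt and 38927 and 39836 in Hox-/-. None of the 5 Crabp1 regions in every library shifted by more than both pairs of replicates, beside 28.0% of all regions.

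Crabp2 (chr3:87948693-87953372) has no entry in the promoter table, so its strand is not given and both ends were examined. The region at the upper-coordinate end, chr3:87952135-87953296, ranked 28694 and 31671 in wt and 25359 and 24500 in Hox-/-, a shift of 0.27 that exceeded the replicate shifts of 0.14 and 0.05 in size, with a limma adjusted p of 0.717. The lower-coordinate end, chr3:87948382-87948726, was weaker and ranked 96370 and 111960 in wt and 82601 and 76781 in Hox-/- (adjusted p = 0.485 by limma). Both ends ranked higher in each Hox-/- library than in either wt library without passing the test, and 14.0% of all regions were higher in Hox-/- by more than the replicates differed.

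The window of Crabp2 held the region with the best mean log2 rank of all 10 genes, although in wt replicate 1 the Cdc6 region in the Rara window stood ahead of it. This region, chr3:87960551-87961219, lay beyond the gene, at -10066 bp from the start of Nes, the nestin gene of neural progenitors. It ranked 4311 and 2271 in wt and 1469 and 1511 in Hox-/-. The folds were 19.8 and 23.3 in wt and 23.8 and 23.2 in Hox-/-, so by fold wt replicate 1 alone stood low. The shift was 1.07 against replicate shifts of 0.92 in wt and 0.04 in size in Hox-/-, and limma gave an adjusted p of 0.237. Of the 6 Crabp2 regions in every library, 5 shifted by more than the replicates, 4 of them higher in Hox-/-, where 28.0% of all regions did so (14.0% in each direction). This count was not tested either.

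Aldh1a2 (chr9:71215789-71296243, plus strand) encodes the dehydrogenase that makes most retinoic acid in the early embryo. The gene is 80455 bp long, and its window held 7 regions in all and 4 in every library. At its start, chr9:71214964-71216699 ranked 37120 and 36967 in wt and 35459 and 29658 in Hox-/-, with a limma adjusted p of 0.822. The strongest region lay inside the gene, chr9:71226984-71228001, 11607 bp from the start. It ranked 6858 and 6808 in wt and 5367 and 8406 in Hox-/- with folds of 14.2 and 14.5 in wt and 15.0 and 13.5 in Hox-/-. The Hox-/- values lay on either side of the wt values at this region. Of the 4 Aldh1a2 regions in every library, 1 shifted by more than the replicates, higher in Hox-/-, beside 28.0% of all regions (14.0% in each direction).

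Ordered by the mean of log2 rank over the 4 libraries, the best region lay away from the start in all 10 genes. Library by library this did not hold at Crabp1: its start ranked ahead of its best other region in both wt libraries. By that mean it was at the top 1.76% to 34.0% of ranks, while the start regions of the 9 genes that had one lay at 14.2% to 70.2%. For Crabp2 this is the upper-coordinate end, the better-ranked of its ends, which may not be its start. Its lower-coordinate end ranked lower in every library. Regions elsewhere outnumber those at starts, so the best of them was picked from more. The median member region stood at the top 38.9% at starts (14 regions) and 27.3% at another end (3 regions). It stood at 57.3% in gene bodies (44 regions) and 43.4% beyond the genes (38 regions). Of the 10 best regions, 2, those of Cyp26a1 and Crabp2, shifted by more than both pairs of replicates, in opposite directions, where 28.0% of all regions did. Of the 99 regions, 5 were in the top 10% of ranks. They were the Cdc6 start region in the Rara window, the H2-Ke6 start region in the Rxrb window, the region inside Aldh1a2, the region before Nes, and chr3:87929799-87930903, whose summit is at -30 bp from the start of Rrnad1 in the Crabp2 window. Thus 3 of the 5 lay at the starts of other genes. Summits in the 99 regions were 24 bp apart at the median between the outermost of the 4 libraries, and within 100 bp in 86 regions.

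The wider pathway was read from 17 further genes for synthesis, transport, breakdown, receptors, coregulators and targets (Rdh10, Aldh1a1, Aldh1a3, Dhrs3, Lrat, Rbp4, Stra6, Fabp5, Cyp26c1, Rxrg, Ncor1, Ncoa1, Nrip1, Stra8, Tgm2, Nr2f1 and Nr2f2). Their windows held 273 regions, 167 of them in every library, and share 8 regions with the member windows through the neighbours Cyp26a1 and Cyp26c1. None of the 167 passed an adjusted p of 0.05 by limma, where 0.151% of all regions were called higher and 0.129% lower. At an unadjusted p under 0.05 there were 22 (13.2%, against 10.7% of all regions). In 56 of the 167 regions the genotype shift exceeded both replicate shifts, 32 of them higher and 24 lower in Hox-/-, where the background was 28.0%. Called in wt alone were 18 of the 273 regions (6.59%, against 3.83% of all regions), and in Hox-/- alone 2 (0.733%, against 1.23%). A start peak was listed for 16 and 17 of the 17 genes in wt and for 15 in each Hox-/- library. Rdh10, Aldh1a3, Fabp5 and Tgm2 have no annotated start, so a peak at either end counted for them. Of all protein-coding genes with an annotated start, 66.9% had a start peak in all 4 libraries. At Nr2f2, the gene of an orphan nuclear receptor, a weak start peak with folds of 3.23 and 3.16 was listed in both wt libraries and in no Hox-/- library, a pattern seen at 0.383% of all genes with an annotated start; it was named after its values were seen. The lowest adjusted p was 0.0813, at a region beyond Lrat, the gene of the enzyme that stores vitamin A as esters; with a replicate block, under which 1232 of the 122787 regions were called, it was 0.0175 (limma).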

How the data were processed

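The deposited data are 1 peak list per library, with an interval, a fold over background (a ratio), −log10 p, −log10 q, a display score and a summit offset per peak, all made by the authors. Per the submitters' processing notes, cutadapt 4.8, Bowtie2 2.5.0, Picard 2.18.2, bedtools 2.30.0, MACS2 2.2.9.1 and deepTools 3.5.4 were used with build mm10; the notes used here give no role, order or setting, so read shifting, duplicate removal and depth are unknown. The deposited score, a rescaled display value, was not used. Each list is from 1 library, so peaks were not pooled.

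The members and lists were chosen with earlier results of these data known. Some genes of the planned pathway list are not reported here, and its counts are over the others. Named regions are the best at a start and the best elsewhere of each member, and those with the lowest p among regions whose genotype shift exceeded both replicate shifts or with an unadjusted p under 0.05; regions in the top 10% and the region called in the wider window were singled out after their values were seen. Gene bodies came from the RefSeq table of GRCm38.p6 and starts from the RefSeq promoter table. Crabp2 and the pathway genes Rdh10, Aldh1a3, Fabp5 and Tgm2 have no entry there, so both ends were used. As a check of the build, 59.4% of 21263 starts had a wt replicate 1 summit within 250 bp, against 5.25% for starts displaced by 3000 bp. Exons were not used, and no genome sequence, so repeats were searched in promoters alone.

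Peaks were merged into regions by an overlap of at least 1 bp. The strongest line gave a region its value. Regions in all 4 libraries were ranked again among themselves and tested with limma 3.58.1 (R 4.3.3, with trend) on normal scores of ranks, genotype as the only term. The test was also run on simulated data, and the outcome is not reported or used here. Other steps used Python 3.11.15, numpy 2.4.6, pandas 2.3.3 and scipy 1.17.1. Alternatives were ranking by fold, windows of 5 and 50 kb, a −log10 q of at least 5, the 50000 strongest peaks, an overlap of 50%, merged lines, start windows of 250 and 2500 bp, no trend, log2 ranks, a replicate block and leaving out each library.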

Additional observations from a re-analysis of the deposited data

How the results depend on the processing

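Of 65 values recomputed under an alternative, 2 changed sign and 11 moved beyond the error or the limit of 1.5 times set for them. No member region was called by limma under ranking by fold, a 5 kb window, stricter q, 50% overlap, no trend, log2 ranks, a replicate block or with any library left out (lowest adjusted p 0.122 with the block, 0.152 to 0.453 with a library left out, where 1 genotype is a lone library assumed to vary like the pair of the other, so that a missing call says little), and 1 was called with the 50 kb window (Cyp26a1). Over all regions the calls themselves depend on the setting: 345 as reported, 1232 with a replicate block, 48 with log2 ranks, 0 by fold or without a trend, and 183, 203, 6 and 5 without wt replicates 1 and 2 and Hox-/- replicates 1 and 2. The replicate numbers do not pair the libraries (correlation of replicate differences across 122787 regions, r = 0.00095). Among the 50000 strongest peaks, 2.13% of member regions were called in wt alone and 0% in Hox-/- alone (all regions 2.498% and 2.26%). With 1 library left out, these were 9.87% to 10.4% and 1.32% to 5.26% (all regions 6.83% to 10.3% and 2.896% to 5.88%), and the share whose genotype shift exceeded the remaining replicate shift was 45.0% to 56.7% (all regions 46.8% to 53.5%), since 1 criterion falls away. The difference in the share of peaks turned to 0.00151 percentage points with overlapping lines merged and ranged from -0.00564 to 0.000991 with a library left out, above 0 without Hox-/- replicate 2. Best regions that exceeded both replicate shifts fell from 2 to 1 with ranking by fold. The smallest shift the test could detect is not reported, and without read counts absence of a peak cannot be told apart from shallow sequencing.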

Other observations

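Among the 17 further pathway genes, Rdh10, Nr2f2 and Dhrs3 had the regions of lowest adjusted p after Lrat, and were singled out for that after their values were seen. None of these regions was called. Rdh10 encodes the dehydrogenase that makes retinaldehyde from retinol. In its gene body, chr1:16129923-16130797 ranked 1330 and 1582 in wt and 3808 and 2809 in Hox-/-, a shift of -1.17, with folds of 17.8 and 18.5 against 15.8 and 16.8 (limma adjusted p = 0.160). It was among the strongest regions of every library and ranked lower in both Hox-/- libraries. At Nr2f2, chr7:70378812-70379373 ranked 55663 and 63083 in wt and 102301 and 96702 in Hox-/- (shift -0.75, limma adjusted p = 0.162). The folds were 7.78 and 7.85 in wt and 4.16 and 4.42 in Hox-/-. Dhrs3 encodes an enzyme that turns retinaldehyde back to retinol. In its gene body, chr4:144898189-144898690 ranked 36622 and 36802 in wt and 77538 and 51933 in Hox-/- (shift -0.79, adjusted p = 0.168 by limma). Over the whole list, regions whose genotype shift exceeded both replicate shifts went both ways, 32 of 167 higher and 24 of 167 lower in Hox-/-. Of all regions 14.0% did so in each direction.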
